A study of Mus musculus with 19 samples.

Results

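The transcripts of 10 regulators of apoptosis from the BCL2 family were followed through 19 bulk RNA-seq samples of mouse mammary gland and mammary tumor. The 10 genes were taken by name and by no cutoff on a measured value, but with earlier results of these data known. They were the pro-survival *Bcl2*, *Bcl2l1*, *Bcl2l2* and *Mcl1*, the effector *Bak1*, and the BH3-only *Bcl2l11*, *Bid*, *Bad*, *Bik* and *Bmf*. Each matched 1 row of the 46078 genes in the table, and all 10 passed the filter on low counts in every comparison. The samples were 3 mammary glands of wild-type mice (WT glands), and 4 each of glands of N mice (N glands), glands of NP mice (NP glands), N tumors and NP tumors. All N and NP animals carried MMTV-neu, which drives the neu (ERBB2) oncogene from a mammary tumor virus promoter active in mammary epithelium. The 4 NP glands and 4 NP tumors came from MMTV-neu;p53wm-R172H/+;Fsp-Cre mice, in which Cre under the Fsp promoter switches 1 p53 allele to R172H in fibroblasts. The 4 N tumors and N gland 1 were MMTV-neu;Fsp-Cre, whereas N glands 2, 3 and 4 were MMTV-neu;p53wm-R172H/+ without Cre, so the N glands share an unrecombined p53 rather than a genotype. By the study's methods the N and NP glands were lesion-free glands of tumor-bearing mice on a mixed background, and the WT mice were of matching age, which is not given in the sources used here. The library names of NP tumors 1 and 2 share an animal number, and nothing in the labels says that every other sample is a separate animal, so the p-values measure the spread between these samples.

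BCL2 family proteins set the threshold for mitochondrial apoptosis. The pro-survival members hold back the effectors BAK and BAX, which otherwise open the outer mitochondrial membrane and release cytochrome c. The BH3-only members report stress, loss of growth factors or detachment by occupying the groove of the pro-survival proteins, and BIM, the product of *Bcl2l11*, and BMF are known for clearing luminal cells in the developing mammary gland and after lactation. Much of this control acts on the proteins, which RNA-seq does not measure.

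The tissues differed in their cells as well as in these genes. WT glands had summed normalized counts of 84404 to 102037 over 9 luminal epithelium markers, against 13712 to 27976 in N glands, 9065 to 27457 in NP glands and 97538 to 184471 in tumors. The 9 white adipocyte markers summed to 357235 to 458047 in N glands and to 170415 to 479700.0 in NP glands, but to 4597 to 6154 in WT glands. A list of 7 immediate-early genes, rapidly induced by stress and growth signals, took 1.19 to 1.53% of the normalized total in WT glands and at most 0.0299% in any other sample. Skeletal muscle markers took 8.6% and 4.73% of it in NP glands 2 and 4, 1.76% and 0.0535% in NP glands 1 and 3, and at most 0.111% elsewhere. WT libraries held 54677315 to 62645459 recovered reads and the others 20899152 to 27262440. In whole tissue, fewer cells of a type and less RNA per cell cannot be told apart, and the part of these differences in the results on the 10 genes was not tested beyond the values given beside them.

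Promoter sequence is shown for *Bcl2l11* and *Mcl1*, the 2 members in which the WT glands stood above every other sample. The share of all genes with such a split was not counted. RefSeq (GRCm38.p6) gave 15 windows, from 250 bases before to 50 after a transcript start, for 9 of the members, and none for *Bik*. Both strands were searched for the forkhead core GTAAACA, AP-1 (TGACTCA), CRE (TGACGTCA), E-box (CACGTG), GC box (GGGCGG) and core-promoter (TATAAA) letters, and for a p53 half-site and a CArG box by name. The *Bcl2l11* gene lies at chr2:128126038-128162547 on the plus strand, and its first window spans chr2:128125788-128126087. In it the capitals mark the forkhead core, which starts 227 bases before the transcript start (position -227):
Bcl2l11, first start: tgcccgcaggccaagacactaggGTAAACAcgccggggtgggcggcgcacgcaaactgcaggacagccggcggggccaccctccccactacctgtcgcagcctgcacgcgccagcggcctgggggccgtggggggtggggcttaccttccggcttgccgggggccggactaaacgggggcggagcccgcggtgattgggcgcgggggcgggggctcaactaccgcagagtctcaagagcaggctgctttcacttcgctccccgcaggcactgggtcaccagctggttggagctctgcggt
The second *Bcl2l11* window, chr2:128127325-128127624, held no forkhead core, and the *Mcl1* window, chr3:95658471-95658770, also on the plus strand, is shown beside it without capitals:
Bcl2l11, second start: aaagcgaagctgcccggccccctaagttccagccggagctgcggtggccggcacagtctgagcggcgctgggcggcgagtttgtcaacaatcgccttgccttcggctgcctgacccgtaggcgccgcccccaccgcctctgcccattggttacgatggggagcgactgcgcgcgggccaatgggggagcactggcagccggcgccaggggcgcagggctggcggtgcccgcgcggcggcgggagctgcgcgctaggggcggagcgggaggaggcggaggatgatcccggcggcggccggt
Mcl1: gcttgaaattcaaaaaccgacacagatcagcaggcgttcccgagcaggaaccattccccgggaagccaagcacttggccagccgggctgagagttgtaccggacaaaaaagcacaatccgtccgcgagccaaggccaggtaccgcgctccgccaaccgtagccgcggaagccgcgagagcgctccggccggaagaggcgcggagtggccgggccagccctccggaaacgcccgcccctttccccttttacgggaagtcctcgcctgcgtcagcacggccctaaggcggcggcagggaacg
None of the other 14 windows held the forkhead core, which stood in 3.65% of all 32817 windows. The p53 half-site was found in 1 member window, of *Bmf*, at -213 from a start (8.36% of all windows), and the GC box, frequent in general (35.6%), in windows of *Bcl2*, *Bcl2l2*, *Mcl1*, *Bcl2l11*, *Bid*, *Bad* and *Bmf*. AP-1, CRE, E-box, core-promoter and CArG letters (5.2%, 1.79%, 7.15%, 13.6% and 1.63% of all windows) were in none of the 15. A match is a description of the letters and not a binding site.

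Glands of N mice and tumors each differed from their reference in several members, whereas no member was called between NP and N tissue. Normalized counts were compared as log2(normalized count + 1) with limma, and a gene was called at an adjusted p under 0.05 over all genes tested, with no fold threshold. In N against WT glands 4 members fell and 2 rose, while 29.2% of the 19017 genes tested fell and 30% rose. In NP against WT glands 4 members fell and 0 rose (24% and 22.4% of 19065 genes), and the 4 were the genes that fell in N glands: *Bcl2l1*, *Mcl1*, *Bcl2l11* and *Bik*. In N tumors against N glands 6 members rose and 0 fell (23.5% and 27.8% of 17950 genes). In NP tumors against NP glands 4 rose and 0 fell (26.2% and 29.3% of 17880). All 8 tumors against WT glands gave 3 members higher and 2 lower (30.4% and 34.4% of 18735). So large a share of all genes moved that counts of members by themselves say little, and the values below carry the account. The comparisons share samples: the WT glands stand in 3 of them and each tumor-free group in several.

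**Figure D1:**
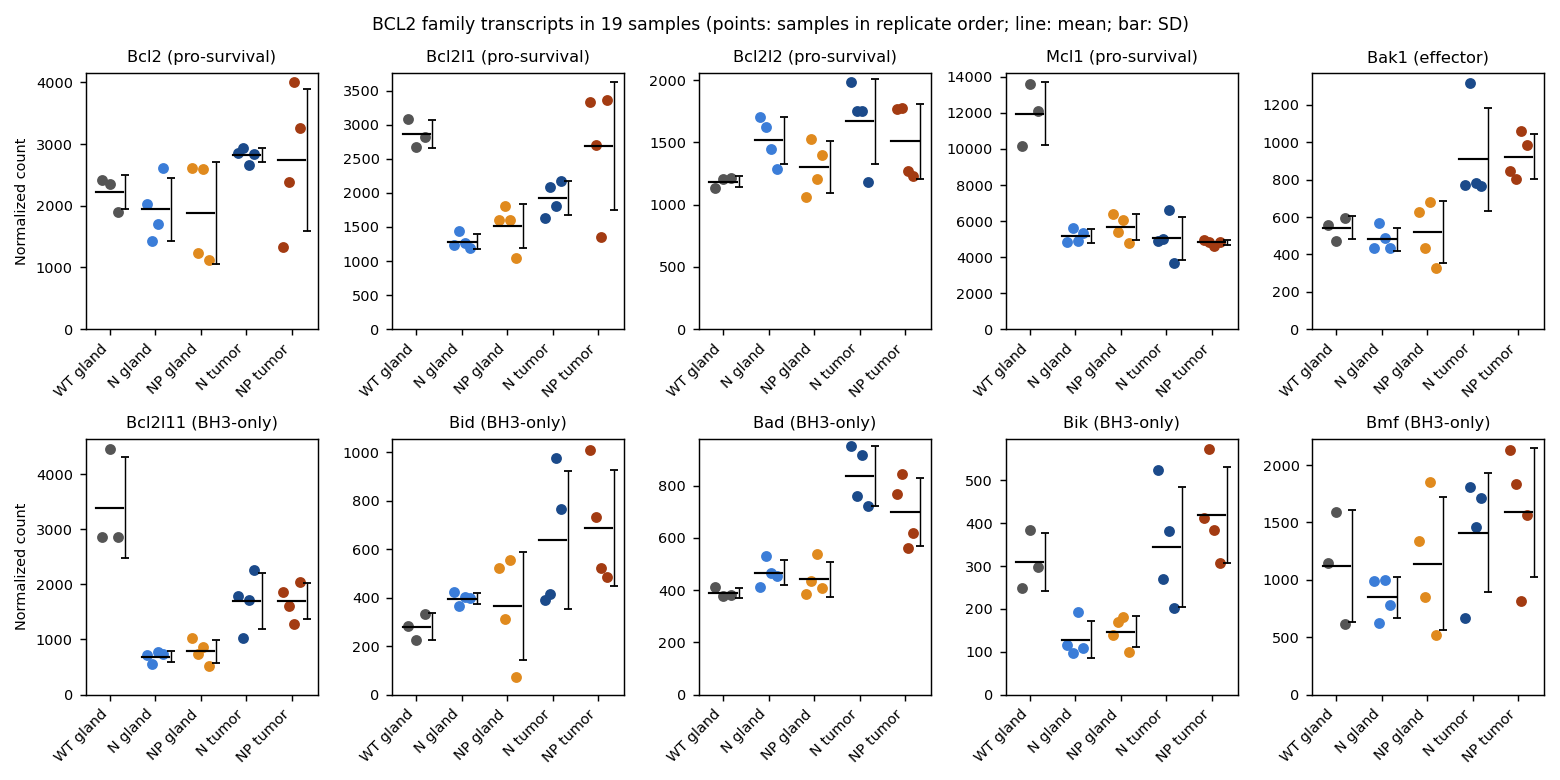
Normalized count (y axis, from 0) of each of the 10 genes in the 5 groups (x axis), with a point per sample in replicate order, a line at the mean and a bar for the SD. *Mcl1* and *Bcl2l11* stand highest in the 3 WT glands with no overlap with any other group, while *Bak1* and *Bad* stand higher in all 8 tumors than in all 11 glands. The share of all genes that separate in these ways was not counted.

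Among the pro-survival genes, *Mcl1* (GRCm38 chr3:95658788-95663176, plus strand), which encodes a short-lived protein needed by many cell types, set the WT glands apart from all other samples. *Mcl1* was counted at 10160.5, 13622.5 and 12109 in the WT glands, at 4840.0, 5609, 4869 and 5344 in the N glands and at 6411, 5373, 6071 and 4779 in the NP glands. In tumors *Mcl1* was at 4897, 5030.1, 6602.5 and 3690.3 in the N group and at 4959, 4848, 4636 and 4834 in the NP group. All 16 N and NP samples lay below the lowest WT gland, and the 4 other groups overlapped one another. On the log2 scale it was lower in N than in WT glands (difference -1.2, SE 0.13, adjusted p = 0.000129), at -1.08 in NP glands (SE 0.16, adjusted p = 0.00191) and at -1.28 in tumors (SE 0.16, adjusted p = 4.08e-05), all by limma. N tumors and N glands gave -0.06 (95% interval -0.46 to 0.35) and NP tumors and NP glands -0.22 (-0.51 to 0.06), neither called; with NP glands 2 and 4 left out, a choice made after seeing the data, the second was called at -0.37 (limma adjusted p = 0.0225; 0.0225 to 0.333 over 20 alternatives). The immediate-early sum followed the same split, with 317628 to 407334 in WT glands and 2003 to 8379 in all others. Basal epithelium markers, 6 in number, did so too, with sums of 47095 to 58884 in WT glands, 6290 to 15310 in N glands, 5718 to 12661 in NP glands and 1192 to 4558 in tumors. The mean log2 value of the 9 luminal markers was also highest in WT glands (12.9 to 13.17, at most 12.83 elsewhere), although their summed counts in tumors overlapped or passed those in WT glands. The part of these in the *Mcl1* difference was not tested.

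*Bcl2l1* (chr2:152780668-152831728, minus strand), the source of BCL-xL, was low in glands of N and NP mice. *Bcl2l1* was counted at 3091, 2676 and 2821 in the WT glands, at 1242, 1439, 1271 and 1194 in the N glands and at 1604, 1808.5, 1595 and 1051 in the NP glands. In tumors *Bcl2l1* was at 1637, 2084, 1815 and 2171 in the N group and at 3329.8, 2696, 1349.5 and 3364 in the NP group. N tumors lay above all N glands and below all WT glands, whereas NP tumors ran from below NP gland 1 to above every WT gland. The differences called by limma were -1.15 in N glands (SE 0.11, adjusted p = 6.38e-05) and -0.94 in NP glands (SE 0.2, adjusted p = 0.00742) against WT, and 0.58 in N tumors against N glands (SE 0.13, adjusted p = 0.00688). NP tumors against NP glands gave 0.77 (95% interval 0.07 to 1.47, limma adjusted p = 0.0609), which became a call at 1.07 without NP tumor 3 (adjusted p = 0.0047) and also with edgeR (adjusted p = 0.0421) and DESeq2 (adjusted p = 0.0223) on the recovered reads. The range of its adjusted p over 20 alternatives was 0.0047 to 0.625.

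*Bcl2* itself (chr1:106538178-106714274, minus strand), best known for keeping lymphocytes alive, varied widely within the gland and NP tumor groups. *Bcl2* was counted at 2419, 2352 and 1906 in the WT glands, at 2023, 1437, 1702 and 2619 in the N glands and at 2608, 1228, 2597 and 1118 in the NP glands. In tumors *Bcl2* was at 2849.5, 2932, 2667 and 2841 in the N group and at 1325, 2381, 3999 and 3262.5 in the NP group. The N tumors lay together and above all N glands, while the NP glands and the NP tumors were each spread widely. N tumors exceeded N glands by 0.57 (SE 0.18, limma adjusted p = 0.0275), a call lost without N tumor 2 (adjusted p = 0.0547), N tumor 4 (0.0552), N gland 2 (0.0675) or N gland 3 (0.0737), with 0.0078 to 0.135 over 17 alternatives. NP tumors against NP glands gave a like value with a wider interval, 0.54 (-0.39 to 1.47, adjusted p = 0.291). Against WT glands the tumors gave 0.27 (-0.31 to 0.85), called only without NP tumor 1 (0.43, limma adjusted p = 0.0368; 0.0368 to 0.681 over 21 alternatives).

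B cell transcripts varied with *Bcl2* among N glands. The summed count of 5 B cell markers was 3738, 89.7, 1116 and 5904 in N glands 1 to 4, the same order as *Bcl2*. In NP glands the sums were 6681, 261, 11474 and 2630.4, and *Bcl2* was again higher in replicates 1 and 3 than in 2 and 4. NP gland 4 had the larger sum but less *Bcl2* than NP gland 2 (1118 against 1228). The order did not hold among WT glands 1 to 3, with sums of 977, 1751 and 1562 beside *Bcl2* of 2419, 2352 and 1906. T cell markers, 5 in number, summed to 3476.5, 257, 4377 and 451 in NP glands 1 to 4. Tumors had only 23.5 to 487 counts of the 5 B cell markers. Of these B cell markers, 4 were below 10 in at least 1 N tumor and all 5 in at least 1 NP tumor. *Bcl2* in tumors ran from 1325 in NP tumor 1, below every WT and N gland, to 3999 in NP tumor 3. NP glands 2 and 4 are also those with most muscle, and the part of these cell types in the gland values was not tested.

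*Bcl2l2* (chr14:54883377-54888234, plus strand), which encodes BCL-w, was the steadiest member, with a highest value 1.87 times its lowest. *Bcl2l2* was counted at 1134, 1208 and 1217 in the WT glands, at 1707, 1627, 1444 and 1285 in the N glands and at 1062.5, 1532, 1209.8 and 1401 in the NP glands. In tumors *Bcl2l2* was at 1985, 1751, 1753 and 1186 in the N group and at 1770.3, 1774, 1274 and 1227 in the NP group. N glands lay above WT glands, by 0.35 on the log2 scale (SE 0.12, limma adjusted p = 0.0391), but the call was lost without any 1 of WT glands 1, 2 or 3 (adjusted p = 0.123, 0.0752 and 0.0789) or N glands 1, 2 or 3 (0.0836, 0.0775 and 0.0572), with 0.018 to 0.138 over 16 alternatives. Tumors exceeded WT glands by 0.4 (95% interval 0.01 to 0.78, limma adjusted p = 0.0658), called without N tumor 4 (0.48, adjusted p = 0.0147) or NP tumor 4 (0.44, adjusted p = 0.047) and with TMM scaling, edgeR and DESeq2 (adjusted p = 0.0451, 0.0389 and 0.0478), with 0.0126 to 0.173 over 21 alternatives. Its exons share 594 bases (13.3%) with *Gm20521* on the same strand, a read-through model with a median of 0 counts.

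The effector *Bak1* (chr17:27019810-27029009, minus strand), whose product forms the mitochondrial pore, rose in both kinds of tumor. *Bak1* was counted at 559, 473.5 and 594 in the WT glands, at 437, 565.5, 487 and 432.5 in the N glands and at 629.5, 437, 680.2 and 328 in the NP glands. In tumors *Bak1* was at 769, 1319, 781 and 764 in the N group and at 844, 803, 1057 and 985 in the NP group. Every tumor lay above every gland of the study, and N tumor 2 stood far above the other N tumors. The rise was 0.88 in N tumors (SE 0.21, adjusted p = 0.00774) and 0.88 in NP tumors (SE 0.24, adjusted p = 0.0136) over their own glands, and 0.74 over WT glands (SE 0.18, adjusted p = 0.00451), by limma. N and NP glands did not pass the test against WT glands, at -0.18 (95% interval -0.51 to 0.16) and -0.12 (-0.76 to 0.52). Luminal sums were also higher in all tumors (97538 or more) than in N and NP glands (27976 or less), and against WT glands the luminal sum and the mean log2 value of the markers ran in different directions. Their part in the *Bak1* differences was not tested. *Ggnbp1* on the opposite strand shares 437 bases (18.2%) of its exons, and the sources used here do not say if reads were counted by strand.

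Among BH3-only genes, *Bcl2l11* had the largest difference of all members between N or NP glands and WT glands. *Bcl2l11* was counted at 2856.5, 4449.5 and 2862 in the WT glands, at 712, 546, 764 and 735 in the N glands and at 1019.6, 738, 869 and 523 in the NP glands. In tumors *Bcl2l11* was at 1784, 1024, 1711 and 2255 in the N group and at 1860.0, 1600.5, 1281 and 2040.1 in the NP group. The levels fell into 3 steps without overlap, WT glands, then tumors, then N and NP glands, and within each of the lower steps the 2 genotypes overlapped. The gap between these was narrow, from 1019.6 in NP gland 1 to 1024 in N tumor 2. N glands were 4.84-fold lower than WT glands (log2 difference -2.28, SE 0.19, adjusted p = 4.02e-05) and NP glands 4.33-fold lower (-2.11, SE 0.27, adjusted p = 0.00102) by limma. Tumors rose from their glands by 1.25 (N; SE 0.24, adjusted p = 0.0029) and 1.13 (NP; SE 0.23, adjusted p = 0.00351) but stayed 1.01 below WT glands on the log2 scale (difference -1.01, SE 0.24, limma adjusted p = 0.0033). Without NP glands 2 and 4 the NP rise was 0.83 (limma adjusted p = 0.0124; 9.13e-05 to 0.175 over 20 alternatives). The luminal score (mean log2 value of the 9 markers) fell into the same 3 steps, with 12.9 to 13.17 in WT glands, 12.04 to 12.83 in tumors and 9.39 to 11.14 in N and NP glands, whereas the luminal sums of tumors and WT glands overlapped. The immediate-early sum made nearly the same steps, with 317628 to 407334 in WT glands, 5148 to 8379 in tumors and 2003 to 5162 in N and NP glands. There, tumors and N or NP glands overlapped slightly. The part of luminal cells or of the immediate-early difference in the *Bcl2l11* differences was not tested. This is the gene whose first promoter window is shown above with the forkhead core.

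*Bik* (chr15:83526862-83544634, plus strand), a BH3-only gene of epithelial cells whose product sits at the endoplasmic reticulum, separated the N and NP glands from the other tissues. *Bik* was counted at 248, 383 and 297 in the WT glands, at 115, 96.5, 193.5 and 109 in the N glands and at 138, 168, 182 and 99.4 in the NP glands. In tumors *Bik* was at 524, 269.7, 382 and 202 in the N group and at 413, 573, 384.5 and 307 in the NP group. N and NP glands lay below all other samples, and WT glands and tumors overlapped. It was lower by limma in N glands (-1.29, SE 0.27, adjusted p = 0.00409) and NP glands (-1.08, SE 0.27, adjusted p = 0.0153) than in WT glands, the latter not called without WT gland 2 (-0.92, adjusted p = 0.0619) or WT gland 3 (-1.1, adjusted p = 0.0501; 0.000809 to 0.684 over 18 alternatives). It rose in N tumors by 1.38 (SE 0.35, limma adjusted p = 0.00998) and in NP tumors by 1.51 (SE 0.27, adjusted p = 0.00164), and tumors against WT glands gave 0.25 (95% interval -0.37 to 0.88). Luminal sums made the same split, and in N glands 2, 4, 1 and 3 they summed to 13712, 15139, 23943 and 27976, the order in which *Bik* increased. The order did not hold among N tumors, where N tumor 2 had the highest sum (184471) but less *Bik* than N tumors 1 and 3. Their part in the *Bik* differences was not tested.

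*Bad* (chr19:6941861-6951899, plus strand), whose product is held inactive by AKT phosphorylation, was higher in tumors. *Bad* was counted at 413, 378 and 380.3 in the WT glands, at 414, 531, 466 and 455 in the N glands and at 386, 434, 537 and 408 in the NP glands. In tumors *Bad* was at 952, 761, 917 and 721 in the N group and at 769, 844, 562 and 618 in the NP group. Every tumor lay above every gland, and the 3 gland groups were close together. N tumors exceeded N glands by 0.84 (SE 0.15, adjusted p = 0.00221), NP tumors exceeded NP glands by 0.65 (SE 0.18, adjusted p = 0.0143), and tumors exceeded WT glands by 0.96 (SE 0.15, adjusted p = 0.00026), all by limma. Without NP glands 2 and 4 the second was 0.6 and not called (limma adjusted p = 0.059; 0.00164 to 0.539 over 20 alternatives). *Gpr137* on the opposite strand shares 524 bases (20.5%) of the *Bad* exons.

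*Bid* (chr6:120891930-120916853, minus strand), which links death receptors to mitochondria once caspase-8 cuts its product, had the widest range, 13.95-fold between its lowest and highest sample. *Bid* was counted at 282, 224.5 and 333 in the WT glands, at 422, 363, 401 and 396.5 in the N glands and at 524, 313, 553.5 and 72.3 in the NP glands. In tumors *Bid* was at 389.7, 413, 976.5 and 763 in the N group and at 1009, 732, 523 and 484 in the NP group. The low extreme was NP gland 4 alone, and both tumor groups ran from values inside the gland range to well above it. Tumors exceeded WT glands by 1.17 (SE 0.32, limma adjusted p = 0.00697), with no overlap. N glands exceeded WT glands by 0.51 (SE 0.16, limma adjusted p = 0.0251), a call lost without N gland 1 (adjusted p = 0.056), N gland 3 (0.0527), WT gland 1 (0.0628) or WT gland 2 (0.0772), with 0.0117 to 0.441 over 16 alternatives. Tumors against their own glands were not called, at 0.57 (95% interval -0.11 to 1.25) for N and 1.2 (-0.18 to 2.59) for NP. The NP difference was called in 1 fit of all 5 groups (limma adjusted p = 0.0416; 0.0416 to 0.749 over 20 alternatives), and its log2 value ran from -0.4 to 1.52 over these. NP against WT glands gave 0.04 (-1.55 to 1.64) with all 4 NP glands and 0.96 with NP glands 1 and 3 only, which was called (limma adjusted p = 0.00935; 0.00935 to 1 over 18 alternatives). *Bcl2l13*, with a median of 1933 counts on the opposite strand, shares 628 bases (17.7%) of the *Bid* exons, so its reads cannot be told apart there unless the counting used strand.

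*Bmf* (chr2:118528757-118549687, minus strand), whose product is tied to the cytoskeleton and to loss of attachment, varied widely within groups. *Bmf* was counted at 1144, 1590.2 and 615 in the WT glands, at 987, 625, 997 and 778 in the N glands and at 1342, 849, 1850.0 and 520.4 in the NP glands. In tumors *Bmf* was at 668, 1812, 1457 and 1709 in the N group and at 2128, 1837, 818 and 1568 in the NP group. All 5 groups overlapped, and no comparison called it: the interval of tumors against glands was -0.07 to 1.4 for N and -0.42 to 1.52 for NP. Leaving out N tumor 1, the lowest tumor, made the N difference a call at 0.99 (limma adjusted p = 0.00481; 0.00481 to 0.251 over 17 alternatives), and leaving out WT gland 3 made N glands lower than WT glands by a called -0.7 (adjusted p = 0.0463; 0.0463 to 0.977 over 16). NP glands 2 and 4 held less *Bmf* than NP glands 1 and 3.

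**Figure D2:**
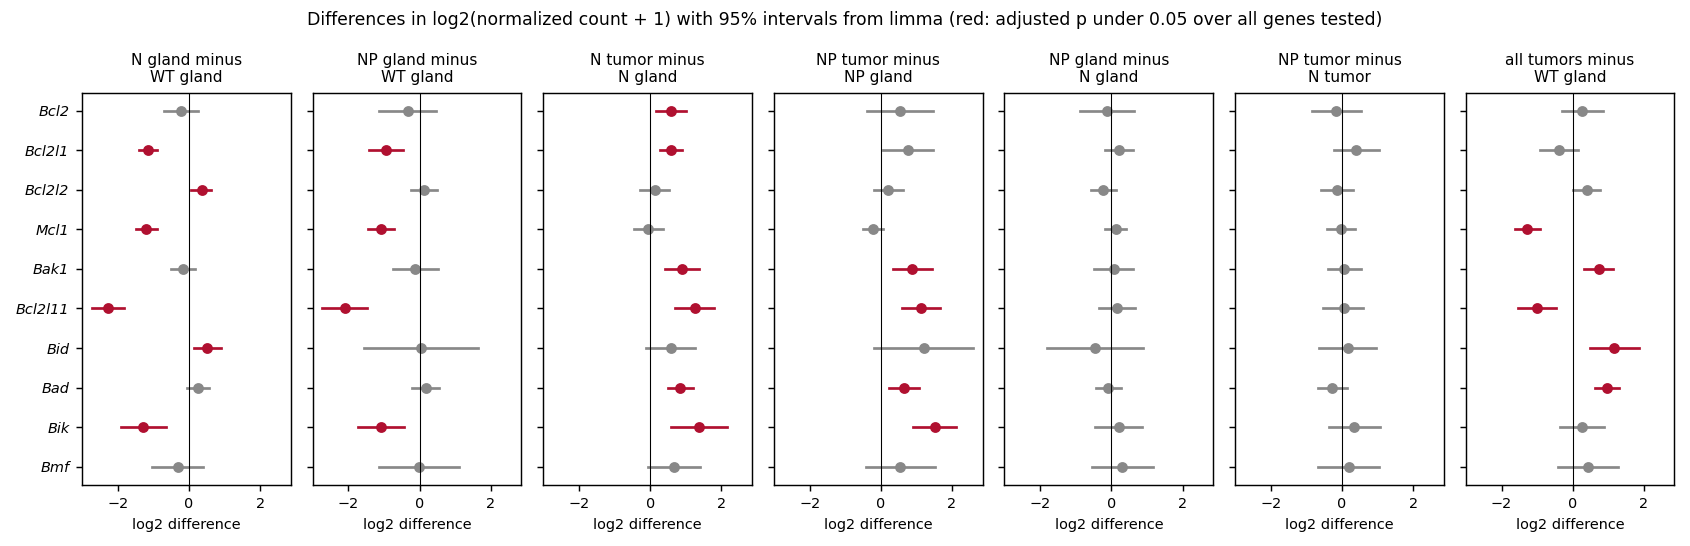
Difference in log2(normalized count + 1) (x axis) for each gene (y axis) in 7 comparisons (panels), with 95% intervals from limma and red for an adjusted p under 0.05. *Mcl1* and *Bcl2l11* lie to the left in the 3 panels against WT glands, *Bak1* and *Bad* to the right in the 3 panels of tumors against glands, and no interval is red where NP is set against N.

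The question of the design, whether p53 R172H in fibroblasts changes these tissues, came out for the 10 genes as intervals rather than calls. In NP against N glands 0 of 10 members were called by limma, as were 0% of the 18563 genes tested. There, 0 members had an unadjusted p under 0.05 or were called by edgeR or DESeq2. In NP against N tumors limma again called 0 of 10, with 0.0421% of 16638 genes called. Likewise, 0 members were under an unadjusted p of 0.05 or called by edgeR or DESeq2. The share of all genes called by edgeR or DESeq2 is not given here, so the 0% in glands holds for limma only. By a different test than limma, the study's authors report genes that do differ between the NP and N glands. The smallest p in glands was that of *Bcl2l2*, at -0.23 (95% interval -0.57 to 0.12, limma adjusted p = 0.67), and in tumors that of *Bad*, at -0.27 (-0.67 to 0.13, adjusted p = 0.757). The intervals differ in what they leave possible. For *Mcl1* they span -0.17 to 0.42 in glands and -0.43 to 0.35 in tumors, whereas for *Bid* they span -1.81 to 0.88 and -0.64 to 0.96, and for *Bcl2l1* in tumors -0.24 to 1.04. The difference between the genotypes in the change from gland to tumor was tested as an interaction, with 0 of 10 members and 0% of 19367 genes called by limma and 0 members at an unadjusted p under 0.05 or by edgeR or DESeq2. Its smallest p was that of *Bid*, 0.63 (-0.91 to 2.17, limma adjusted p = 0.891), which turned to -0.02 without NP gland 4. A gene called in N tumors and not in NP tumors, such as *Bcl2*, was therefore not shown to differ between them. The 4 N tumors carried Fsp-Cre without the p53wm-R172H allele, while N glands 2, 3 and 4 carried the allele without Cre. The interaction and the change from N glands to N tumors therefore also hold this difference in genotype, and its part was not tested.

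NP tumors 1 to 4 differed among themselves more than N tumors in *Bcl2* (SD 1153 against 112 counts) and *Bcl2l1* (942 against 245), with no test of this spread. NP tumor 3 had the highest *Bcl2* of all samples and the lowest *Bcl2l1*, *Bcl2l11* and *Bmf* of its group. NP tumor 1 was the reverse in *Bcl2*, at 1325, and had the highest *Bid* and *Bmf* of all samples. Among NP glands, replicates 2 and 4 were below 1 and 3 in *Bcl2*, *Mcl1*, *Bak1*, *Bcl2l11*, *Bid* and *Bmf*, and NP gland 4 held the lowest value of the whole study in *Bcl2*, *Bcl2l1*, *Bak1*, *Bcl2l11*, *Bid* and *Bmf*. With a skeletal muscle score as a covariate, 0 members were called in NP against WT glands and 0 in NP tumors against NP glands. That score ran from 9.22 to 17.3 in NP glands and from 2.98 to 3.17 in WT glands, so muscle and group cannot be told apart in that fit. With NP glands 2 and 4 left out, which keeps NP gland 1 and its 1.76% of muscle transcripts, *Bcl2l1*, *Mcl1*, *Bcl2l11* and *Bik* were still called against WT glands, and *Bid* as well.

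**Figure D3:**
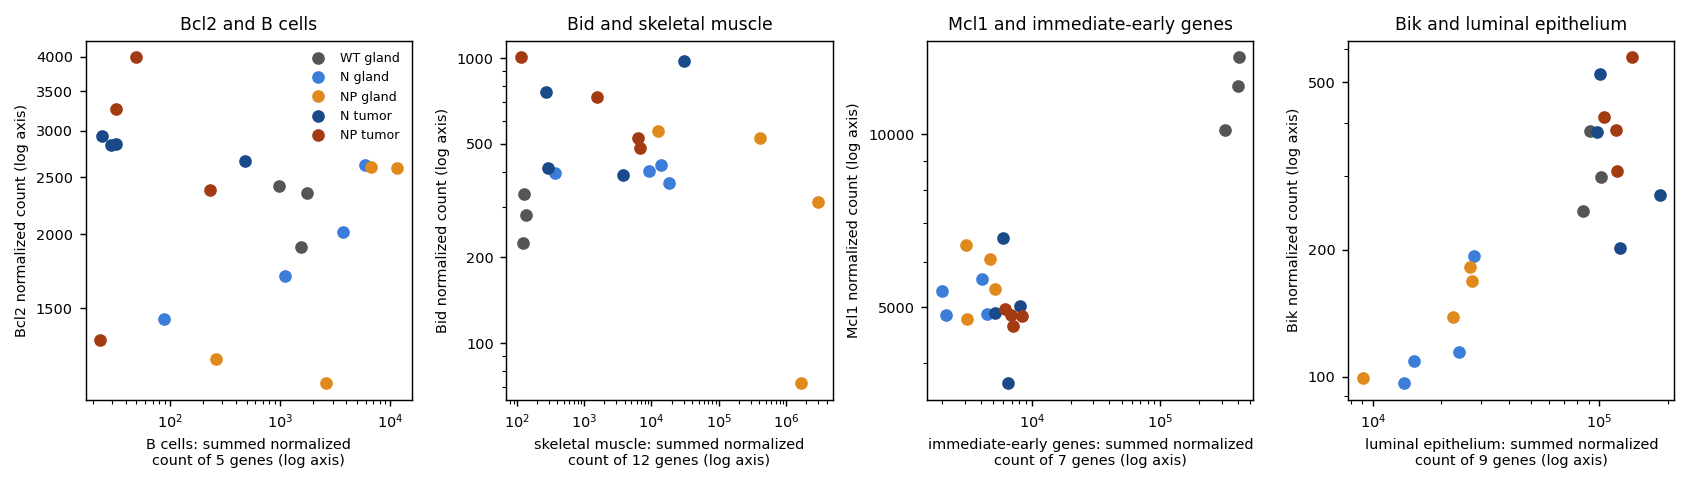
Normalized count of a member (y axis, log) against the summed normalized count of a marker list (x axis, log) in 19 samples colored by group. *Bcl2* follows B cell markers among the 4 N glands while tumors, where these are at most 487, run from 1325 to 3999 in *Bcl2*, *Bid* is lowest in the muscle-rich NP gland 4, *Mcl1* and immediate-early genes are both highest in WT glands, and *Bik* is low where luminal markers are low.

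Per kilobase of exon, which allows genes to be set beside each other, *Mcl1* was the leading pro-survival transcript in every sample. Its per-kb level was 3500 ± 508 in WT glands (SD, n = 3), 1511 ± 109.7 in N glands, 1656 ± 213 in NP glands, 1479 ± 349.6 in N tumors and 1409.9 ± 39.4 in NP tumors (n = 4 each). It made up 71.4 to 78.2% of the summed per-kb level of the 4 pro-survival genes in WT glands, 61.8 to 66.3% in N glands and 64.3 to 68.2% in NP glands. In tumors its share was 50.7 to 64.1% (N) and 50.9 to 57.2% (NP). *Bcl2l1* took 12.4 to 26.7% in NP tumors and 10.9 to 12.7% in N glands, and *Bcl2* at most 18.4% in any sample. In the BH3-only class *Bcl2l11* led in WT glands with 36.7 to 42.3%, but held 11.5 to 16.5% in NP glands, 12.2 to 15.3% in N glands and 12.1 to 22.8% in tumors. Outside WT glands no BH3-only gene led throughout: *Bad* had the highest median share in N glands (27.9%) and N tumors (27.2%), and *Bmf* in NP glands (29.7%) and NP tumors (25.4%). These shares are transcript levels and not amounts of protein.

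**Figure D4:**
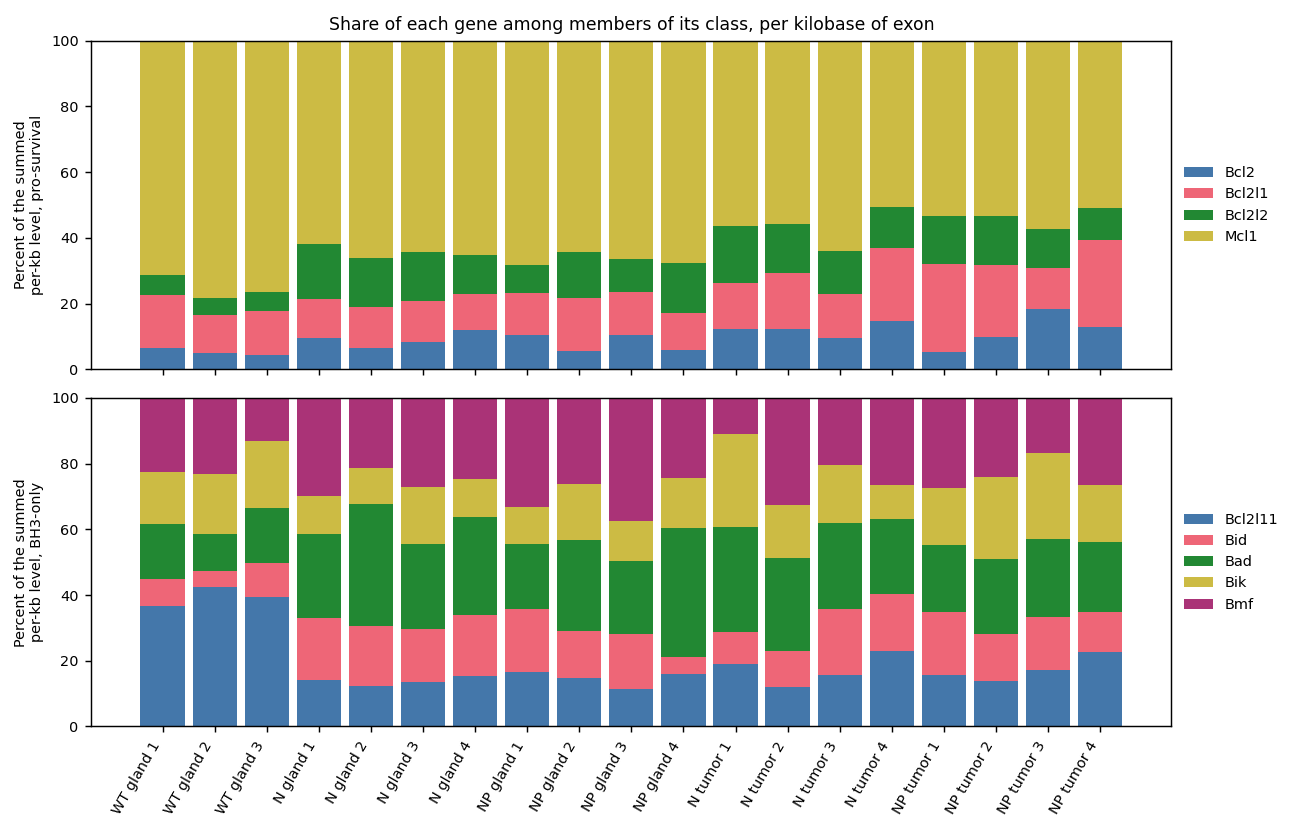
Share (y axis, percent) of each gene in the summed per-kilobase level of the pro-survival class (top) and the BH3-only class (bottom), with a stacked bar per sample. *Mcl1* fills 71.4 to 78.2% of the upper bar in WT glands and 50.7 to 64.1% in tumors, and *Bcl2l11* shrinks from 36.7 to 42.3% of the lower bar in WT glands to at most 22.8% elsewhere.

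The other genes of the pathway moved in both directions. Of 15 further BCL2 family genes, 13 were tested in N against WT glands, where 3 rose and 2 fell. In NP against WT glands 12 were tested, where 1 rose and 1 fell. Of all genes tested, 30% rose and 29.2% fell in N glands, and 22.4% rose and 24% fell in NP glands. *Bnip3*, a mitophagy gene induced by low oxygen, rose by 4 in N glands (SE 0.13, adjusted p = 5.82e-07) and by 4.07 in NP glands (SE 0.39, adjusted p = 0.000367) by limma, and *Bbc3*, the source of the p53 target PUMA, fell by 1.35 (SE 0.23, adjusted p = 0.00128) and by 1.23 (SE 0.36, adjusted p = 0.0253). In N glands *Pmaip1*, the source of NOXA, also fell, by 1.59 (SE 0.44, limma adjusted p = 0.0145), and *Bcl2l10* rose by 2.22 from a mean of 2.86 to one of 17.2 counts (SE 0.44, limma adjusted p = 0.00281). *Bnip3* is also well expressed in muscle, and its counts in NP glands ran from 4167 to 12754. In N glands, where muscle markers took at most 0.0685% of the normalized total, *Bnip3* ran from 5436 to 7088. White adipocyte sums, given above, were also higher in N and NP glands than in WT glands. The part of muscle or adipocytes in the *Bnip3* differences was not tested. In tumors against their glands 3 of 14 (N) and 3 of 13 (NP) rose and 5 and 2 fell. Of all genes tested, 23.5% rose and 27.8% fell in N tumors, and 26.2% rose and 29.3% fell in NP tumors. Against WT glands 30.4% of all genes were higher and 34.4% lower in tumors. *Bcl2l14* rose by 3.01 (SE 0.52, limma adjusted p = 0.00172) and 2.98 (SE 0.51, adjusted p = 0.00142), *Bbc3* by 1.11 (adjusted p = 0.0193) and 0.96 (adjusted p = 0.0334), and *Bcl2l15* differed by -3.09 (adjusted p = 0.0109) and -2.35 (adjusted p = 0.0242) on the log2 scale. *Bcl2l10* was at 0 in all 4 N tumors, at least 4.91-fold lower than in N glands against a floor of 3 reads per library, and *Bnip3* fell by 1.49 in N tumors (SE 0.46, limma adjusted p = 0.0254; added after its values were seen) and by 1.76 in NP tumors (SE 0.42, adjusted p = 0.00694). Against WT glands tumors had 4 of 13 higher and 3 lower, with *Bcl2a1b* at 2.72 (SE 0.39, limma adjusted p = 0.000114; 2.3 against 20.8 and 19.7 mean counts, a gene with near-identical copies), *Bnip3* at 2.41 (adjusted p = 0.000699), *Pmaip1* at -2.46 (adjusted p = 0.000503) and *Bcl2l15* at -2.42 (adjusted p = 0.00516).

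A list of 20 further genes of the apoptosis machinery, from death receptor signaling to caspases and their inhibitors, was tested in every comparison. In N glands 7 rose and 5 fell against WT glands (30% and 29.2% of all genes). In NP glands 5 rose and 3 fell (22.4% and 24% of all genes). Cytochrome c, encoded by *Cycs*, rose by 1.97 (SE 0.16, limma adjusted p = 3.4e-05) and 2.47 (SE 0.64, adjusted p = 0.0172), and *Aifm1*, for a flavoprotein of the same compartment, by 1.34 (adjusted p = 0.00013) and 1.76 (adjusted p = 0.00666). In NP glands 1 to 4 *Cycs* was at 1690, 4556, 1249 and 8701 and *Aifm1* at 1204, 1596, 1205.5 and 3270. Both were highest in the muscle-rich NP glands 2 and 4, and the part of muscle was not tested. *Birc3*, an inhibitor-of-apoptosis gene under NF-kB, fell by 1.32 (adjusted p = 0.000418) and 1.49 (adjusted p = 0.0257), and *Fadd*, the death receptor adaptor, by 0.84 (adjusted p = 0.00249) and 0.94 (adjusted p = 0.00565). In N tumors 6 rose and 4 fell against N glands (23.5% and 27.8% of all genes), and in NP tumors 6 rose and 3 fell (26.2% and 29.3%). Against WT glands 30.4% of all genes were higher and 34.4% lower in tumors. *Birc5*, the survivin gene of dividing cells, rose by 2.92 (SE 0.41, limma adjusted p = 0.000699) and 2.77 (SE 0.55, adjusted p = 0.00287). *Cycs* fell by 0.68 (adjusted p = 0.0254) and 1.54 (adjusted p = 0.0454), and *Birc3* by 1.53 (adjusted p = 0.00164) and 1.12 (adjusted p = 0.0296). For *Cycs*, NP gland 3 at 1249 lay inside the NP tumor range of 674 to 1287. Against WT glands tumors had 9 higher and 4 lower, with *Birc5* at 3.04 (adjusted p = 5.86e-06), *Birc3* at -2.74 (adjusted p = 4.41e-06) and *Dffb*, a nuclease gene, at -1.27 (adjusted p = 0.00552), all by limma. In NP against N tissue 0 genes of either list were called by limma. At an unadjusted limma p under 0.05 there were 0 of 14 and 2 of 20 in glands and 1 of 12 and 1 of 20 in tumors. There, edgeR called 0, and DESeq2 called 1 of the 20 in glands. The shares of all genes at an unadjusted p under 0.05 or called by edgeR or DESeq2 are not given here.

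The genes most alike to each member across the 19 samples, by Pearson r of log2(normalized count + 1) among 20392 genes, are given as a description, since the samples fall into tissue groups that any gene of those tissues shares. *Mcl1* was most like *Btg2* (0.957), *Rgs16* (0.949) and *Ankrd53* (0.939). *Bcl2l11* was most like *Evpl* (0.945), *Chka* (0.944) and *Sox9* (0.941), and *Bcl2l1* like *Usp54* (0.886), *Evpl* (0.884) and *Prr15l* (0.88). *Evpl* stood in both lists. *Bik* was most like *Eps8l2* (0.961), *2610528J11Rik* (0.959) and *Prss8* (0.947), *Bak1* like *Pfn1* (0.955), *Cdca4* (0.95) and *Arpc4* (0.946), and *Bad* like *Nhlrc3* (0.944), *Ift22* (0.939) and *Dpm3* (0.933). The nearest genes of the other members were less close: *Oas1c* (0.867), *Slc1a2* (0.85) and *Itgax* (0.821) for *Bcl2*, *Cemip* (0.845), *Ska1* (0.839) and *Pif1* (0.836) for *Bid*, *Gm14091* (0.843), *Akr1b8* (0.817) and *Anapc15* (0.785) for *Bcl2l2*, and *Fbxl8* (0.821), *Lpo* (0.808) and *Ltk* (0.799) for *Bmf*.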

How the data were processed

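RNA-seq of 19 mouse samples in 5 groups was examined. By the study's methods, paired reads of 75 bp from a HiSeq3000 were placed on GRCm38 by bowtie2 within TopHat2 (version 2.1.1 per the submitters' processing notes). The methods name TRIzol, RNeasy and an mRNA kit, whereas the labels name total RNA purification and a stranded total RNA kit. The counter, the annotation and the use of strand are not given in the sources used here. The signal deposited by the authors is 1 table of read counts per gene divided by a DESeq2 size factor per library, and every column was used. Values were whole multiples of 1 step per library, so the reads were recovered (100% whole within 0.05 reads). Size factors ranged from 1.9354 to 2.3449 in WT glands and from 0.7006 to 1.0648 elsewhere, so the scaling is part of every value.

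GENCODE vM21 matched 98.16% of the identifiers and gave positions and exon lengths. Genes with at least 10 normalized counts in as many samples as the smaller group were fitted as log2(normalized count + 1) with limma (version 3.58.1, R 4.3.3; lmFit and eBayes with a trend, tested on simulated data), each comparison on its own groups, with Benjamini-Hochberg adjustment over all genes tested. A fold on this scale understates the change of low genes. edgeR (4.0.16, quasi-likelihood) and DESeq2 (1.42.0) on recovered reads, TMM, other pseudocounts and filters, a 2-fold threshold, 1 fit of 5 groups, a replicate block, omission of each sample, averaging of NP tumors 1 and 2 and a muscle covariate were alternatives, and omission of NP glands 2 and 4 was added after seeing the data. The 10 members, the 2 pathway lists and the 10 marker lists were chosen with earlier results of these data known. All members are named, and of each pathway list the genes past the test with the 2 largest differences per direction, except a gene that is not reported here. Differences are given for called members and, where none was called, for that with the smallest p, and those of other members as intervals.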

Additional observations from a re-analysis of the deposited data

Results flagged for a closer look

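*Bak1* in N tumors was flagged because 1 sample stood far from the other 3: N tumor 2 was at 1319 normalized counts (1319.2), against 769, 781 and 764 in N tumors 1, 3 and 4, a gap of 0.971 of the range of the group. The same tumor had the highest luminal epithelium sum of all samples (184471). Of 40 groups of 4 samples examined over the 10 genes, this was the only 1 flagged, and chance flags about 1 in 20. Without it the N tumors still exceeded N glands in *Bak1*, by 0.69 on the log2 scale (limma adjusted p = 0.007; 0.000405 to 0.0255 over 17 alternatives).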

How the results depend on the processing

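Of 520 values of 28 called or smallest-p results under the alternatives, 486 kept their direction and side of the threshold. A further 32 kept the direction but were no longer past it, and 2 reversed. Members called only under an alternative are mostly outside this tally. Examples are *Bcl2l2* in tumors against WT glands (7 of 21 alternatives) and *Bcl2l1* in NP tumors against NP glands (4 of 20). Of the 6 members called in N tumors against N glands, 2 also changed at least 2-fold (*Bcl2l11* and *Bik*), as did 2 of 4 in NP tumors against NP glands and 3 of 5 in tumors against WT glands. With the muscle score as a covariate 0 of 4 were called in NP against WT glands, where *Bcl2l11* moved from -2.11 to -1.49 and *Bik* from -1.08 to -0.46, and 0 of 4 in NP tumors against NP glands. The *Bid* interaction ran from -0.02 to 0.95 over omissions of single samples, below 0 only without NP gland 4, and was -0.29 without NP glands 2 and 4. The deviations of same-numbered samples from their group means correlated at -0.257 to 0.285. With so few samples this cannot decide whether a shared replicate number marks a pair. The library names of same-numbered glands and tumors carry different numbers. A replicate block left 4 of 6 members called in N against WT glands (*Bcl2l2* at 0.42 and *Bid* at 0.51 lost) and 5 of 6 in N tumors (*Bcl2* lost), kept all 4 in each of both NP comparisons, and gave 6 instead of 5 in tumors against WT glands. Genes at low counts and members of wide spread, *Bid* and *Bmf* above all, limit what 3 or 4 samples per group can resolve, and WT libraries were the deepest.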

Other observations

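*Bax*, the other main effector beside *Bak1*, is described here after its values were seen. *Bax* was counted at 562.5, 426 and 565 in the WT glands, 414, 592, 466 and 500.5 in the N glands and 471, 405, 605.5 and 395 in the NP glands. In tumors it was at 1539.5, 1077, 647 and 607 (N) and 640.2, 690.5, 956 and 910.2 (NP), so every tumor lay above every gland, as for *Bak1*, by a margin of 607 (N tumor 4) over 605.5 (NP gland 3) at its narrowest. It exceeded the glands by 0.88 in N tumors (SE 0.3, limma adjusted p = 0.0364) and by 0.77 in NP tumors (SE 0.2, adjusted p = 0.0109), and WT glands by 0.71 (SE 0.27, adjusted p = 0.0375).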
